A study of Mus musculus with 6 samples.

Results

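Mast cell genes were described in RNA of murine tissue around engineered cartilage, as 9 genes whose symbols were matched exactly to the lines of the deposited count table. They were 9 of 48440 genes and were chosen by name: the proteases Cpa3, Mcpt4, Cma1, Tpsb2 and Tpsab1, the IgE receptor chains Fcer1a and Ms4a2, the histamine enzyme Hdc and the receptor Mrgprb2. Cartilage made from rabbit bone marrow stem cells was wrapped in a PCL/collagen nanofibrous membrane and placed under the skin of BALB/c nude mice, which the methods of the study describe as young males. In the 0%-Axitinib group (3 samples) the membrane held no drug, and in the 3%-Axitinib group (3 samples) it held axitinib, an inhibitor of the tyrosine kinases of VEGF receptors and of KIT. The labels call the first group untreated, and it was read as the 0%-Axitinib group because the design of the series names these 2 groups. All tissue was taken 12 weeks after implantation, and nude mice have no thymus but still have mast cells, B cells and myeloid cells. The comparison asked whether transcripts of a KIT-dependent cell type differed between tissue next to a membrane with axitinib and tissue next to one without it.

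Mast cells are resident cells of skin and connective tissue that lie near vessels and nerves. They mature and survive on signals from the receptor KIT and its ligand, stem cell factor, and store proteases and histamine in granules bound to the proteoglycan serglycin. Crosslinking of IgE on the receptor FcεRI, or ligands of Mrgprb2, make them release those granules.

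The libraries held 17761968, 16716411 and 18005908 reads on genes in replicates 1 to 3 of the 0%-Axitinib group, and 9225518, 11686084 and 18403795 in the 3%-Axitinib group. Replicate 3 of the 0%-Axitinib group stood apart in neutrophil genes, replicate 2 of that group in keratin genes, and replicates 1 and 3 of the 3%-Axitinib group in skeletal muscle genes. The summed level of 7 neutrophil genes was 35.8, 42.6 and 35605 CPM (read counts scaled to library size with TMM factors) without axitinib, against 141, 82.4 and 40.1 CPM with it, with S100a9 the most abundant. The summed level of 8 muscle genes, led by Acta1, was 119, 3.27 and 6.52 CPM against 11458, 14.8 and 6600 CPM, and that of 3 keratin genes, led by Krt10, was 3.55, 512 and 3.42 CPM against 6.05, 6.65 and 3.76 CPM. The part of these differences in the results below was not tested, except where values without a library are given.

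All 9 mast cell genes were lower in the 3%-Axitinib group by the criterion of the study (a fold change of 1.5 or more and an unadjusted p no higher than 0.05), applied to edgeR's quasi-likelihood fit, against 11.7% of the 15257 tested genes. None was higher, against 9.54% of tested genes. The median log2 fold change of the 9 was -3.15 (-2.75 with Mrgprb2 at the high end of its counting interval), and that of all tested genes was -0.03. The median of the 9 was -2.36 without replicate 3 of the 0%-Axitinib group and -3.98 without replicate 3 of the 3%-Axitinib group. Fcer1a, Ms4a2 and Mrgprb2 passed the filter on low counts only through the 0%-Axitinib samples, so their direction was set by the filter, and these counts and the median are a description. With scaling by total counts in place of TMM, the median of all tested genes shifted by -0.13, and 71.2% of the genes past the criterion were lower in place of 55.1%. All 9 mast cell genes were still lower by the criterion, as were 2448 of all tested genes in place of 1785. In bulk tissue, fewer mast cells and less RNA per mast cell cannot be told apart.

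None of the 9 reached an adjusted p of 0.05 in edgeR's test, where their adjusted p lay between 0.0965 and 0.191. All 9 had an unadjusted p of at most 0.05, as did 3585 of the 15257 tested genes. Of all tested genes 1 reached an adjusted p of 0.05, which is 0.00655% of them. It was Nr1d1, a circadian repressor named here after its values were seen, with an adjusted p of 0.0229 in edgeR. With DESeq2's Wald test, 6 of the 9 had an adjusted p of at most 0.05 (7.28% of genes were so called and lower), and for Hdc and Mrgprb2 DESeq2 gave none. The 6 included Fcer1a and Ms4a2, whose direction the filter had set. With limma-voom, 0 of the 9 had an adjusted p of at most 0.05 (0% of genes were so called and lower). By the criterion of the study 8 were lower with limma-voom, as were 1484 of all 15257 tested genes. Without replicate 3 of the 0%-Axitinib group, edgeR called 1252 genes at an adjusted p of at most 0.05 in place of 1, with 3.89% of tested genes called and lower. Among the 9 it called Ms4a2 (adjusted p = 0.0449), whose direction the filter on low counts had set. In that fit 8 of the 9 met the criterion as lower, against 13.7% of tested genes, and Fcer1a did not. Without replicate 2 of the 3%-Axitinib group 58 genes were called, and without any 1 of the other 4 samples 0 genes were.

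The proteases gave most of the mast cell reads. Cpa3, carboxypeptidase A3 of the granule, was at 13.4, 19.4 and 28.1 CPM in the 0%-Axitinib samples and at 1.87, 1.37 and 6.08 CPM in the 3%-Axitinib samples. Replicate 3 was the highest of both groups, and the groups did not overlap. This was a log2 fold change of -2.68 ± 0.62 (SE), with an adjusted p of 0.0973 in edgeR. Mcpt4, the chymase of connective tissue mast cells, was at 21.5, 22.6 and 40.7 CPM against 0.990, 0.364 and 7.82 CPM. Its 3%-Axitinib replicates 1 and 2 were near the limit of the filter and replicate 3 was far above them, yet below every 0%-Axitinib sample. Mcpt4 had a log2 fold change of -3.15 ± 0.99 (SE). Cma1, a second chymase, was even across the 0%-Axitinib group, at 17.3, 20.9 and 22.9 CPM, and was at 1.87, 0.911 and 7.18 CPM with axitinib. The groups were also apart, at a log2 fold change of -2.58 ± 0.70 (SE). Without replicate 3 of the 3%-Axitinib group the log2 fold changes were larger, at -3.64 for Cpa3, -5.39 for Mcpt4 and -3.88 for Cma1.

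The tryptases are trypsin-like proteases held in the granule as tetramers. Tpsb2 was at 27.1, 43.3 and 37.3 CPM in the 0%-Axitinib samples and at 2.86, 2.28 and 16.1 CPM in the 3%-Axitinib samples, a log2 fold change of -2.32 ± 0.74 (SE). Tpsab1 was at 24.2, 63.4 and 25.6 CPM against 3.63, 4.65 and 21.7 CPM. The 3%-Axitinib replicate 3 came close to the lowest 0%-Axitinib sample in Tpsab1, which was 1.12 times as high, and the groups were only just apart. Tpsab1 had a log2 fold change of -1.90 ± 0.75 (SE), with an adjusted p of 0.191 in edgeR, the highest of the 9. Without replicate 2 of the 0%-Axitinib group, or without replicate 1 or 2 of the 3%-Axitinib group, Tpsab1 no longer met the criterion, at log2 fold changes of -1.31, -1.50 and -1.55, and Tpsb2 did not without replicate 1 of the 3%-Axitinib group (-1.94).

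Both chains that mark the mast cell and basophil form of the IgE receptor were low in all samples and lowest with axitinib. Fcer1a, the chain that binds IgE, had 14, 31 and 114 reads in the 0%-Axitinib samples and 0, 1 and 9 reads in the 3%-Axitinib samples. The highest 0%-Axitinib sample was replicate 3, and the groups did not overlap in CPM either (0.731, 1.81 and 6.19 against 0.00, 0.0911 and 0.521). The log2 fold change was -3.58 ± 1.16 (SE). Fcer1a lost the criterion without that replicate (-2.36), and also without replicate 2 of the 3%-Axitinib group (-3.24). Ms4a2, the signal-amplifying beta chain, had 22, 31 and 177 reads against 1, 3 and 3 reads, and was the only one of the 9 in which 3%-Axitinib replicate 3 was not the highest of its group in CPM (0.110, 0.273 and 0.174). Its log2 fold change was -4.43 ± 1.03 (SE), and -2.92 without replicate 3 of the 0%-Axitinib group.

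Hdc, which makes histamine from histidine, was at 11.4, 9.91 and 109 CPM in the 0%-Axitinib samples and at 3.52, 1.91 and 6.89 CPM in the 3%-Axitinib samples. A single sample, replicate 3 of the 0%-Axitinib group, held most of its reads. The log2 fold change was -3.38 ± 1.07 (SE) with that sample and -1.36 without it, and Hdc met the criterion both ways. The criterion was lost without replicate 1 or replicate 2 of the 3%-Axitinib group (-3.25 and -3.02). Mrgprb2, the mast cell receptor for cationic peptides and drugs, had 14, 34 and 26 reads against 0, 0 and 2 reads. The 3%-Axitinib group thus held 2 reads in all against 74, a ratio of 0.0396 with an exact 95% interval of 0.00471 to 0.148, which covers counting error only.

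**Figure D1:**
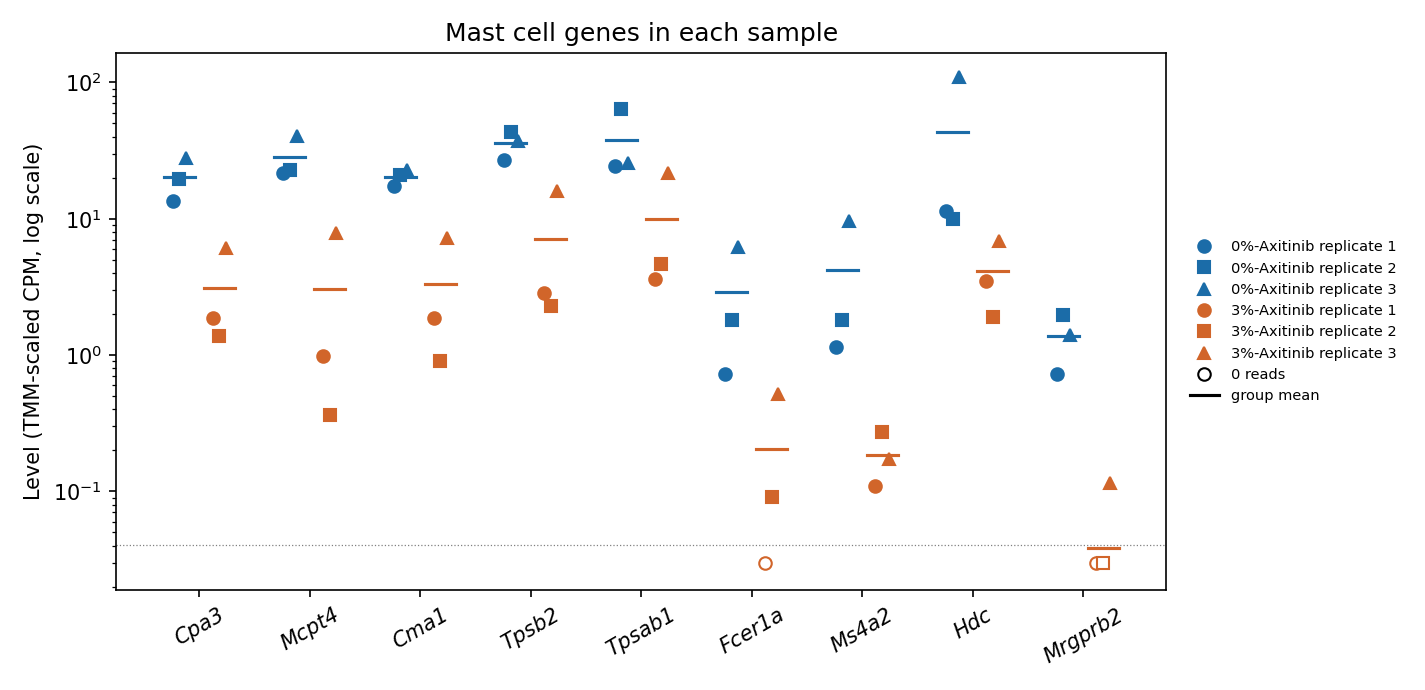
Level of each mast cell gene in each sample, in TMM-scaled CPM on a log axis. Points are single samples, short lines are group means, and open points under the dotted line had 0 reads. All 3%-Axitinib points lie below all 0%-Axitinib points of the same gene, closest in Tpsab1 (21.7 against 24.2 CPM).

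The groups did not overlap for any of the 9 genes, against 16.6% of tested genes that were lower without overlap. For Fcer1a, Ms4a2 and Mrgprb2 the filter on low counts had set this, so the count is a description. An exact two-sided permutation test of the CPM gave p = 0.1 for each, the smallest p that 3 samples against 3 can give. Together the 9 genes took 2251, 3175 and 5175 reads in the 0%-Axitinib samples and 135, 130 and 1149 reads in the 3%-Axitinib samples. The third 3%-Axitinib replicate was thus the richest of its group in mast cell reads, and also in summed CPM (66.5, against 14.8 and 11.8). It was also one of the samples with high muscle genes, together with replicate 1, in which mast cell reads were few.

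Compared per length of exon, the proteases were the highest in both groups. In the 0%-Axitinib group the mean level in RPKM (CPM per kilobase of exon) was 25.5 ± 9.76 (SD, n = 3) for Mcpt4, 22.5 ± 5.12 for Tpsb2, 18.7 ± 2.58 for Cma1, 18.0 ± 10.6 for Tpsab1 and 13.4 ± 4.86 for Cpa3. Neighbours in this order differed by less than their spread. Hdc followed at 6.81 ± 8.91, Fcer1a at 2.92 ± 2.90, Ms4a2 at 1.49 ± 1.67 and Mrgprb2 at 0.662 ± 0.302 (SD, n = 3). The order of these genes rested on replicate 3, with Hdc at 17.1, Fcer1a at 6.20, Ms4a2 at 3.42 and Mrgprb2 at 0.680 RPKM. In replicate 2 Fcer1a (1.81) was above Hdc (1.55), and Mrgprb2 (0.955) was above Ms4a2 (0.643). In the 3%-Axitinib group the order of the proteases was Tpsab1 (4.76 ± 4.84), Tpsb2 (4.44 ± 4.90), Cma1 (3.05 ± 3.10), Mcpt4 (2.76 ± 3.73) and Cpa3 (2.05 ± 1.71), with spreads as large as most of the means.

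Hdc, Fcer1a and Ms4a2 are also used by basophils, and Hdc by neutrophils in part. Replicate 3 of the 0%-Axitinib group was set against the mean of replicates 1 and 2. It was 10.3 times as high in Hdc, 6.50 times in Ms4a2 and 4.88 times in Fcer1a. The other members were at 1.71 times (Cpa3), 1.85 times (Mcpt4), 1.20 times (Cma1), 1.06 times (Tpsb2) and 1.04 times (Mrgprb2). Tpsab1 was lower in replicate 3, at 0.585 times. The same sample held the basophil proteases. Mcpt8 had 10, 0 and 1346 reads in the 0%-Axitinib samples and 0 in each 3%-Axitinib sample. Prss34 had 2, 1 and 1978 reads against 0, 1 and 0. The basophil list of 3 genes, led by Prss34, summed to 1.20, 1.05 and 182 CPM against 0.440, 0.182 and 0.521 CPM, and 0 of the 3 met the criterion, with only Cd200r3 tested (log2 fold change -1.52 ± 0.70). It passed the filter on low counts only through the 0%-Axitinib samples, so this direction was set by the filter too. The count was 1 without replicate 2 of the 0%-Axitinib group and 2 without the filter. The part of basophil RNA in the values of Hdc, Fcer1a and Ms4a2 in that sample was not tested, and their values without it are given above.

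**Figure D2:**
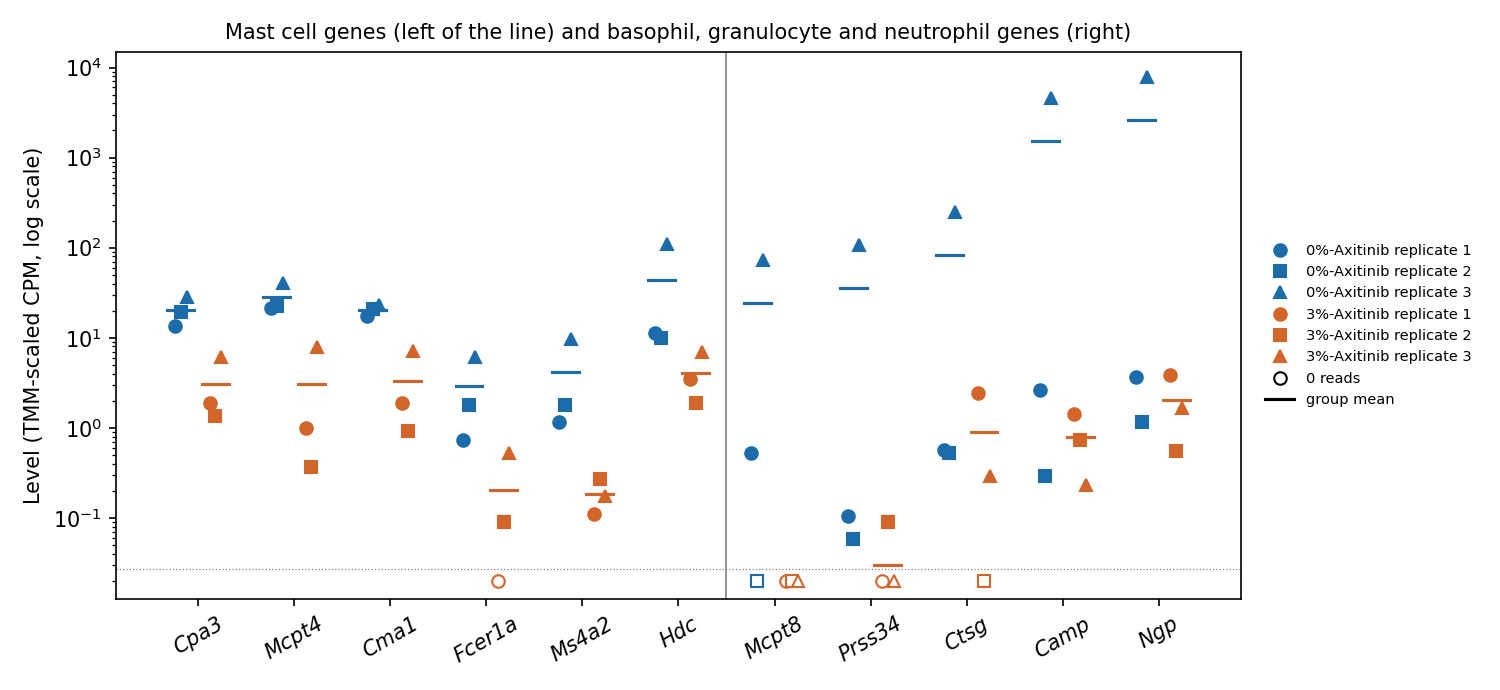
Level of 6 mast cell genes (left of the line) and of basophil (Mcpt8, Prss34), granulocyte (Ctsg) and neutrophil (Camp, Ngp) genes (right), in TMM-scaled CPM on a log axis. Points are single samples, short lines are group means, and open points under the dotted line had 0 reads. The genes on the right are high in replicate 3 of the 0%-Axitinib group alone, where Hdc also reached 109 CPM.

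KIT and its ligand were both lower with axitinib. Kit, the receptor that mast cells depend on and that melanocytes and some progenitors also carry, was at 13.2, 16.2 and 46.2 CPM in the 0%-Axitinib samples and at 0.990, 1.55 and 2.72 CPM in the 3%-Axitinib samples. Every 0%-Axitinib sample was well above every 3%-Axitinib sample. The log2 fold change was -3.81 ± 0.64 (SE), with an adjusted p of 0.0965 in edgeR, and -3.02 without replicate 3 of the 0%-Axitinib group. Kitl, stem cell factor, which is made by fibroblasts, endothelial cells and other stromal cells, was even within each group, at 44.1, 46.4 and 39.8 CPM against 13.5, 12.2 and 14.2 CPM. Its log2 fold change was -1.71 ± 0.18 (SE). Of the 7 genes of the KIT axis list, 5 were lower by the criterion, the other 3 of them being the transcription factors Tal1 (-3.43 ± 0.79), Gata2 (-1.92 ± 0.76) and Stat5b (-0.73 ± 0.19). Without replicate 3 of the 0%-Axitinib group Tal1 was at -2.09 and Gata2 lost the criterion (-0.82). Gata2 also lost it with limma-voom (-1.62) and without replicate 1 or 2 of the 3%-Axitinib group (-1.58 and -1.76). Mitf was at -0.47 ± 0.38 and Stat5a at 0.02 ± 0.17, and the median of the list was -1.71. Without replicate 3 of the 0%-Axitinib group Mitf met the criterion (-0.81), so that 5 were still lower, and the median was -0.82. Of the melanocyte list, led by Mlana, 1 of 5 genes was lower by the criterion (Mlana), the median of the 2 tested genes was -0.76, and the sum was 4.96, 4.20 and 7.88 CPM against 4.62, 2.10 and 3.24 CPM. Dct, Tyr and Tyrp1 were near 0 in every sample.

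The wider set of mast cell genes was mixed. Of 7 other granule proteases 3 were tested and lower by the criterion (Tpsg1, Ctsg and Gzmb), and Mcpt1, Mcpt2, Mcpt9 and Cma2 were near or at 0 reads throughout. Tpsg1, the membrane-anchored tryptase, had 15, 24 and 17 reads against 0, 0 and 3. The 3 reads against 56 gave a ratio of 0.0785 with an exact 95% interval of 0.0157 to 0.241, which covers counting error only. It passed the filter on low counts only through the 0%-Axitinib samples, as did Tph1, Cd247 and Ms4a1 of the lists below, so the direction of these 4 was set by the filter. Ctsg rested on replicate 3 of the 0%-Axitinib group and turned to a log2 fold change of 0.61 without it. It also lost the criterion with limma-voom (-3.82), with the replicate block (-4.09) and without any 1 of the 3%-Axitinib samples. Gzmb, also a gene of lymphocytes, lost the criterion without replicate 3 of the 0%-Axitinib group (-1.61), without replicate 1 or 2 of the 3%-Axitinib group (-2.10 and -2.29) and with limma-voom (-2.13).

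Of 10 genes of granule storage and mediator synthesis, 3 were lower and 0 higher by the criterion, with a median of -0.54, and without replicate 3 of the 0%-Axitinib group 2 were lower and 2 higher, with a median of 0.19. Without replicate 2 of the 0%-Axitinib group 0 were lower, and without replicate 1 of the 3%-Axitinib group 1 was. The 3 in the full fit were Hpgds, a prostaglandin D synthase (-1.26 ± 0.44), Slc18a2, the vesicular monoamine transporter (-1.16 ± 0.45), and Tph1, which starts serotonin synthesis (-2.64 ± 0.82). Slc18a2 lost the criterion with limma-voom (-1.09) and in 4 of the 6 fits with a sample left out (-0.80 without replicate 3 of the 0%-Axitinib group). Hpgds lost it in 3 of those 6 (-0.76 without replicate 2 of the 0%-Axitinib group), and Tph1 in 1 (-2.33 without the same replicate). Srgn, the serglycin core that many leukocytes share, was at 130, 159 and 305 CPM against 257, 267 and 192 CPM, and its groups overlapped. Its log2 fold change was 0.27 in the full fit, and without replicate 3 of the 0%-Axitinib group Srgn met the criterion as higher (0.72). Of 11 genes of Fc receptor signalling, 6 were lower and 0 higher, with a median of -0.81, among them Lat (-2.32 ± 0.70) and Lyn (-1.08 ± 0.28), but 2 were lower without replicate 1 and 3 without replicate 2 of the 3%-Axitinib group. Fcer1g, the gamma chain shared with the Fc receptors of macrophages, was at 275, 364 and 296 CPM against 260, 305 and 381 CPM. These groups overlapped. Those of Fcer1a and Ms4a2 did not, but the filter on low counts had set that, so no contrast is drawn. Of 6 cytokine receptor and IL-33 genes, 1 was lower (Il9r, -2.89 ± 0.74) and 2 were higher (Il1rl1, the IL-33 receptor, 1.22 ± 0.27, and Il4ra, 1.27 ± 0.35), with a median of 0.61. Without replicate 3 of the 0%-Axitinib group, and with DESeq2's Wald test, 2 were lower, with Csf2rb at -1.39 in the first.

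Other cell types did not move alike. Of 8 macrophage genes, led by Lyz2, 0 were lower and 0 higher by the criterion, with a median of -0.04 and sums of 10831, 11493 and 8111 CPM against 7803, 10089 and 16153 CPM. Without replicate 3 of the 0%-Axitinib group the median was -0.29 and 1 was lower, Adgre1 (-1.35, adjusted p of 0.0433 in edgeR). All 6 endothelial genes, led by Pecam1, were lower, with a median of -1.46 and sums of 577, 379 and 601 CPM against 113, 170 and 199 CPM. The count was 5 without replicate 3 of the 0%-Axitinib group, where Emcn lost the criterion (-0.59). Of 5 fibroblast genes, led by Col1a1, 0 were lower and 1 was higher (median 0.72), or 0 higher without replicate 3 of the 0%-Axitinib group. Their sums were 17545, 8931 and 5789 CPM against 15608, 46956 and 16912 CPM, highest in replicate 2 of the 3%-Axitinib group. The log2 fold change of Col1a1 ranged from 0.83 to 2.28 with samples left out. Of 4 adipocyte genes, led by Fabp4, 1 was lower (median -1.17), and all 4 were with limma-voom or without replicate 1 of the 3%-Axitinib group. The 5 B cell and plasma cell genes, led by Jchain, summed to 26.2, 105 and 410 CPM against 2.20, 3.01 and 1.68 CPM, and 4 of them were tested and lower. The count was 3 without replicate 3 of the 0%-Axitinib group, and 2 without replicate 3 of the 3%-Axitinib group, with limma-voom or with the replicate block. The 4 T cell genes, led by Cd3d, summed to 1.88, 7.23 and 122 CPM against 0.660, 1.37 and 0.463 CPM, and 2 of them were tested and lower, with 1 to 4 lower over the fits with a sample left out, 4 without the filter, and 1 with limma-voom or with the replicate block. Of the neutrophil list 5 of 7 genes were lower, with a median of -8.83. Without replicate 3 of the 0%-Axitinib group 1 was lower and 1 higher (S100a8, 1.98), with a median of 0.10. The count of lower genes was 0 with DESeq2's Wald test, limma-voom or the replicate block. It was 1, 0 and 0 without replicates 1, 2 and 3 of the 3%-Axitinib group. Of the muscle list 6 of 8 were higher, or 4 without replicate 3 of the 0%-Axitinib group. Of the keratin list 1 of 3 was lower, with 0 to 2 lower over the fits with a sample left out (0 without replicate 2 of the 0%-Axitinib group). That count was 3 without the filter, and 0 with DESeq2's Wald test, limma-voom or the replicate block. The part of these cell types in the values of the 9 genes was not tested.

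Ptprc, the common antigen of all leukocytes, was itself lower, at 215, 351 and 363 CPM against 79.7, 81.7 and 98.1 CPM (log2 fold change -1.84 ± 0.27). Each mast cell gene was therefore also set against Ptprc in the same sample. Cpa3 reads were 6.23%, 5.52% and 7.73% of Ptprc reads in the 0%-Axitinib samples and 2.34%, 1.67% and 6.19% in the 3%-Axitinib samples. Replicate 3 of the 3%-Axitinib group lay inside the range of the other group for Cpa3, and for Tpsab1 and Tpsb2 it was the highest of all 6 samples (22.1% and 16.4%). Of the 9 ratios to Ptprc, all had a lower mean in the 3%-Axitinib group, against 3.05% of all tested genes other than Ptprc. Fcer1a, Ms4a2 and Mrgprb2 had passed the filter on low counts only through the 0%-Axitinib samples, so this count is a description. The differences on the log2 scale ran from -2.38 (Mrgprb2) to -0.43 (Tpsab1). Of the 9, 7 overlapped between groups. The other 2 were Ms4a2 and Mrgprb2, whose direction the filter had set, against 0.374% of tested genes with a lower ratio without overlap. Single samples decided some of them: the difference for Tpsab1 was 0.00 without replicate 1 of the 3%-Axitinib group and -0.09 without replicate 2 of the 0%-Axitinib group. The difference for Hdc was -0.86, and it was 0.13 without replicate 3 of the 0%-Axitinib group. With 2 reads added in place of 0.5, the difference was -0.88 in place of -1.87 for Fcer1a and -0.92 in place of -2.38 for Mrgprb2. The lowest was then that of Mcpt4, at -2.16. The lowest exact two-sided permutation p was 0.1, and 0.412 after Benjamini-Hochberg adjustment over 11 ratios.

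Within the protease pairs, Mcpt4 reads were 1.24, 1.08 and 1.78 times those of Cma1 in the 0%-Axitinib samples and 0.529, 0.400 and 1.09 times in the 3%-Axitinib samples. The difference on the log2 scale was -1.08, with overlapping groups (exact permutation p = 0.2, adjusted 0.412). Tpsb2 reads were 1.12, 0.682 and 1.46 times those of Tpsab1 against 0.788, 0.490 and 0.743 times. These groups overlapped too (difference -0.65, exact permutation p = 0.3, adjusted 0.412).

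The chymases lie in 1 locus on chromosome 14 and the tryptases in another on chromosome 17 (GRCm38). Cma1 at chr14:55941451-55944675 and Mcpt4 at chr14:56059629-56062313, both on the minus strand, are 115 kb apart in a locus of 321 kb with 15 protein-coding genes. The genes between them, Cma2, Mcpt1, Mcpt9 and Mcpt2, had at most 7 reads in any sample. Mcpt8, 19.9 kb beyond Mcpt4, had nearly all its reads in 1 sample, as given above. Tpsab1 at chr17:25343245-25345562 on the minus strand and Tpsb2 at chr17:25366305-25369098 on the plus strand are 20.7 kb apart, and Tpsg1 follows Tpsb2 directly. Mrgprb2 lies at chr7:48550965-48558086, Cpa3 at chr3:20215620-20242181, Fcer1a at chr1:173221284-173227214, Ms4a2 at chr19:11615523-11623719 and Hdc at chr2:126593667-126619299, all on the minus strand.

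Reads of close relatives bear on some of these counts. Of all 50-base stretches of its transcripts, 5.48% of Mcpt4 occur in Cma2 or Mcpt9, 5.38% of Cma1 in Gm48934 and 2.1% of Ms4a2 in Ms4a4b, while Tpsb2 and Tpsab1 share 0 with any other gene. RefSeq lists Tpsab1 as a transcribed pseudogene in the reference strain and GENCODE as protein-coding, and the mice here were BALB/c. Cpa3 contains the miRNA gene Mir7007 on the same strand, and the other 8 genes overlap no annotated gene. Tpsg1 overlaps Cacna1h on the other strand, and whether counting used the strand is not given in the sources used here.

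**Figure D3:**
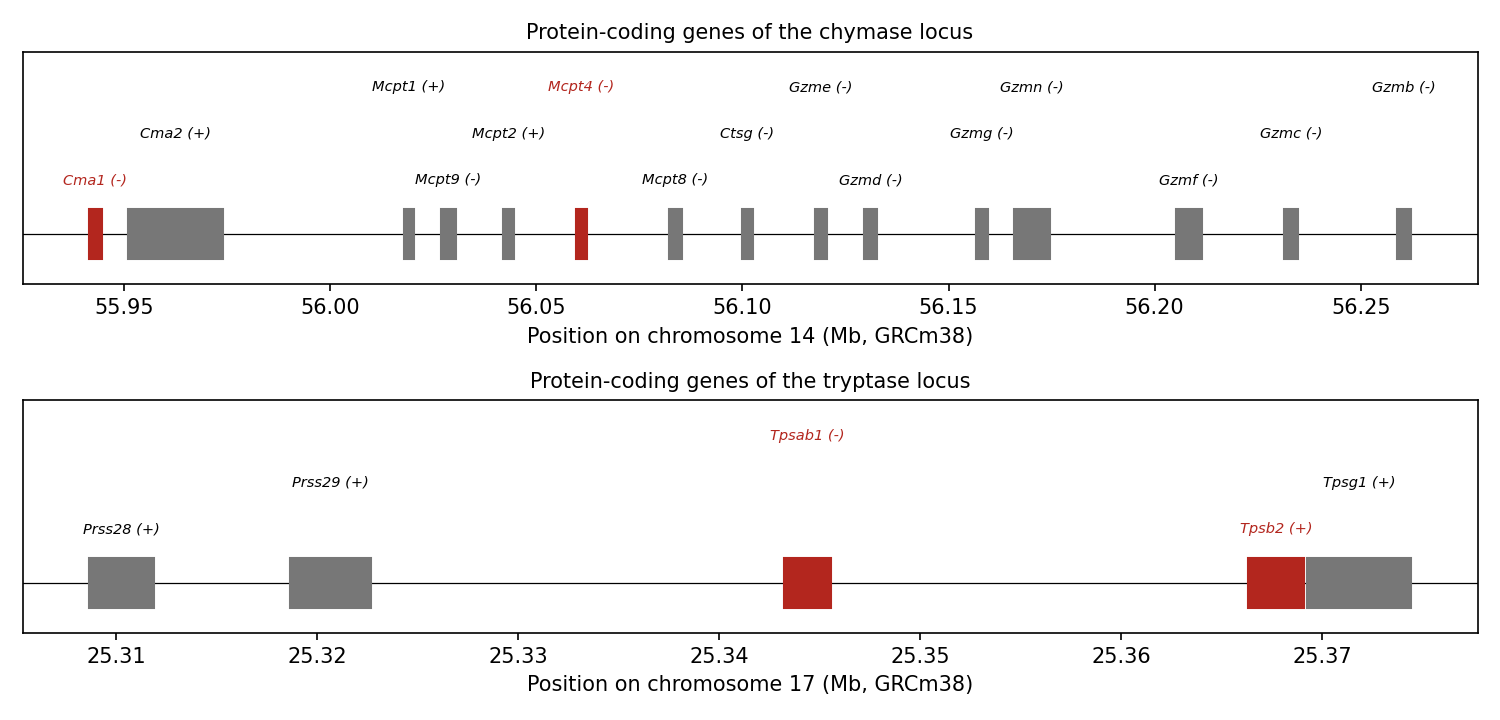
Protein-coding genes of the chymase locus on chromosome 14 (top, 321 kb) and the tryptase locus on chromosome 17 (bottom, 65.8 kb), drawn to scale in Mb of GRCm38, with the strand in brackets. Genes among the 9 are in red, and the other genes of each locus are in grey.

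The promoters of the mast cell genes were searched for GATAA, the core that GATA factors such as GATA2 bind, on both strands (TTATC on the other). RefSeq promoters of 300 bases on GRCm38.p6 were matched for 7 of the 9 genes, and Tpsb2 and Tpsab1 were not among them. The motif was present in 6 of the 7 (Hdc had none, Ms4a2 had 3), against 25.4% of 32851 promoters of the same length. Those promoters were not matched to the 7 in base composition. The window listed for Hdc, chr2:126618629-126618928, lies inside the gene as GENCODE gives it and not at its start, so the start of Hdc was not searched. A match is a description of the letters and not a bound site. For each of the 6, the match nearest to the annotated start is shown with 20 bases on either side, read along the gene with the motif in capitals, because these are the letters that the promoters have in common.
Cpa3: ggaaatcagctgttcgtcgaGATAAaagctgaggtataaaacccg
Mcpt4: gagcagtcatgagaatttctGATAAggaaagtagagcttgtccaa
Cma1: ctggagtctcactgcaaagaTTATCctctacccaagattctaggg
Fcer1a: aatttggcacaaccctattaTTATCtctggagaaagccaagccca
Ms4a2: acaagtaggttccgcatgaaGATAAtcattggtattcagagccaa
Mrgprb2: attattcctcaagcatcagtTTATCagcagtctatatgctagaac

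The matches begin 45 bases before the start of Cpa3 (window chr3:20242202-20242246), 102 before Mcpt4 (chr14:56062388-56062432), 194 before Cma1 (chr14:55944845-55944889), 92 before Fcer1a (chr1:173227297-173227341), 10 before Ms4a2 (chr19:11623705-11623749) and 48 before Mrgprb2 (chr7:48558110-48558154), all on the minus strand.

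Over the 6 samples, the genes most like the mean log2 CPM of the 9, among 14335 other tested genes with a mean of at least 1 CPM, were Lmo2, Arhgef4, Zcchc9, Pqlc1 and Rhbdf2. Their Pearson r was 0.996, 0.996, 0.996, 0.994 and 0.993 (n = 6), a description of samples that also differ by group and depth. Lmo2, a partner of TAL1 and GATA factors in blood and endothelial cells, was at 103, 130 and 144 CPM in the 0%-Axitinib samples and at 53.8, 50.9 and 77.5 CPM in the 3%-Axitinib samples. It ranked the samples as the mast cell genes did on average, with replicate 3 the highest of each group, but over a much narrower range (log2 fold change -1.05 ± 0.24). Each mast cell gene had an r between 0.85 and 1.00 with the mean of the other 8 (n = 6), lowest in Ms4a2 and Hdc. Of 7 other genes set against the mean of the 9, Kit had an r of 0.97, Ptprc of 0.95, the endothelial gene Kdr of 0.92, Tal1 of 0.91, Gata2 of 0.87, the basophil gene Mcpt8 of 0.66 and Srgn of -0.29.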

How the data were processed

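RNA of tissue around 6 implants was sequenced, 3 with 0% and 3 with 3% axitinib. The authors deposited raw read counts per gene, made with fastp and STAR 2.5.2b (per the submitters' processing notes) on mm10 (GRCm38). The 4 lines of reads given to no gene entered no library size or test, and unmapped reads were on average 8.08% of a library without axitinib and 31.5% with it. Counts were filtered with filterByExpr (minimum count 10, total 15, a cutoff of 0.580 CPM), scaled by TMM and tested with edgeR 4.0.16 in R 4.3.3 (quasi-likelihood F-test), and p-values were adjusted over all tested genes by the method of Benjamini and Hochberg. The standard error of a log2 fold change was derived from its F statistic. Log2 CPM used a prior count of 2, and ratios of reads had 0.5 added on the log2 scale. Ratios were compared by an exact two-sided permutation test. The tests were tried on simulated counts. Alternatives covered DESeq2 1.42.0 (size factors and Wald test), total counts, TMM without muscle genes, limma 3.58.1 (voom), other filters, the replicate number as a block and each sample left out. The same alternatives were applied to the context lists and to many of the other named genes after the data were seen. For the rest, such as Srgn, Stat5a and Nr1d1, only some of them were.

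The members and the 17 other lists were chosen with earlier results of these data known. The text names the 9 genes, genes of the lists, neighbouring genes and the 5 genes whose log2 CPM followed the mean of the 9 most closely. Other genes are marked where they were chosen after their values were seen. Positions and exon lengths came from GENCODE M21, in which 91% of gene names occur, and promoters from RefSeq (GRCm38.p6). Mice carried a pair of constructs of the same group by the study's methods, and the mouse of each sample is not given in the sources used here, so p-values measure the spread between samples. Figures were drawn with matplotlib 3.10.9.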

Additional observations from a re-analysis of the deposited data

Results flagged for a closer look

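Reads that mapped nowhere in the mouse genome, which no comparison above uses, made up 48.4%, 29.2% and 16.8% of replicates 1 to 3 of the 3%-Axitinib group, each above the highest 0%-Axitinib sample (14.9%). Their source was not tested. The mast cell genes had the most reads in replicate 3 of the 3%-Axitinib group, the sample of that group with the lowest unmapped share. It was also the deepest library of that group (18403795 reads on genes, against 9225518 and 11686084). Scaled for depth, the genes summed to 14.8, 11.8 and 66.5 CPM in replicates 1 to 3. A link to the unmapped share was not tested.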

How the results depend on the processing

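All 9 mast cell genes had a negative log2 fold change in each setting that gave them a value (131 of 131 values). All settings drew on the same samples. The filter on low counts had set the direction of Fcer1a, Ms4a2 and Mrgprb2, so this count is a description. Of the alternatives other than samples left out, 66 kept a gene on its side of the criterion and 1 did not, Hdc with limma-voom (-2.59), and with samples left out 46 did and 8 did not. DESeq2 gave Hdc no p, and with at least 10 counts in every sample only 5 of the 9 were tested, so 5 were lower. The log2 fold change with samples left out ranged from -3.80 to -1.89 for Tpsb2, -3.19 to -1.31 for Tpsab1, -5.65 to -2.36 for Fcer1a and -3.98 to -1.36 for Hdc. Genes at an adjusted p of at most 0.05 numbered 1961 with DESeq2, 2 with limma-voom, 15 without a filter and 0 to 1252 with samples left out, against 1, and the cause was not tested. Genes higher by the criterion numbered 1055 to 2274 with samples left out. With 2 counts added the difference in Mrgprb2 to Ptprc was -0.92 in place of -2.38, as few reads were counted, and that in Hdc to Ptprc ranged from -1.58 to 0.13 with samples left out. Of the lists, 176 counts were within 1.5 times the main count and 48 were not. Ctsg ranged from -8.83 to 0.61 with samples left out. Fcer1g, at 0.02, was -0.11 with total counts, -0.01 with limma-voom, 0.00 without a filter and -0.14 to 0.15 with samples left out.

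With the replicate number as a block, 2 genes were called at an adjusted p of at most 0.05. Same-numbered samples deviated from their group means with correlations of 0.18, -0.12 and -0.17. Those of differently numbered samples ran from -0.22 to 0.21. No pairing by number was seen, but with so few samples this check cannot exclude it.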

Other observations

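Mrgprb1, which neighbours Mrgprb2 on chromosome 7 and was chosen after its values were seen, had 46, 115 and 45 reads in the 0%-Axitinib samples and 0, 3 and 16 reads in the 3%-Axitinib samples. Its groups did not overlap, and its log2 fold change was -3.11 ± 0.97 (SE). It lost the criterion without replicate 2 of the 0%-Axitinib group (-2.46) or replicate 2 of the 3%-Axitinib group (-2.89).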
